A study of Mus musculus with 16 samples.

Results

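The 9 mouse genes Fos, Fosb, Fosl1, Fosl2, Jun, Junb, Jund, Atf3 and Batf encode proteins of the AP-1 transcription factor group, and the open chromatin around them was followed through a chemical reprogramming time course. They are 9 of 21887 protein-coding genes and were listed by name as a known factor group, with earlier results of these data known. Around each gene, the peaks of 8 ATAC-seq lists that overlap its RefSeq span (GRCm38, the build that the files call mm10) extended by 50 kb on each side were collected. Overlapping peaks of the 8 lists were merged into regions, which gave 166 regions in the 9 windows out of 165616 on the main chromosomes. Of the 166, 15 lay within 1 kb of an end of the named gene, 32 lay within 1 kb of an end of another protein-coding gene, and 119 lay at no such end and are called distal here.

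ATAC-seq marks open chromatin through the insertions of the Tn5 transposase. Each stage has 2 samples, 16 in all, and 1 deposited peak list. The stages are mouse embryonic fibroblasts (MEF, day 0), reprogramming intermediates at days 2, 4, 6, 8, 10 and 12, and induced pluripotent stem cells (iPSC). All stages carry the strain label 129XOG2 and start from E13.5 embryo fibroblasts of passages 1 to 3, grown in serum medium. OG2 mice carry a green fluorescent protein reporter driven by Pou5f1 sequences. For the intermediates, the fibroblasts were moved to a reprogramming medium, renewed every day between days 4 and 8, of which the sources used here give no recipe. The iPSC grew on feeder cells in medium with LIF, CHIR99021 (a GSK3 inhibitor) and PD0325901 (a MEK inhibitor, which blocks the kinase above ERK). The sources used here do not say whether feeders were removed or whether the 2 samples of a stage came from separate cultures.

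AP-1 is a dimer of basic leucine zipper proteins. FOS proteins pair with JUN proteins, while JUN proteins can also pair with each other, and the dimers bind the sequence TGANTCA. ATF3 and BATF belong to the same superfamily and pair with JUN proteins. Several of the genes are immediate early genes, which serum and growth factors switch on within minutes through the ERK, JNK and p38 kinases. In fibroblasts AP-1 is known for its binding at distal enhancers, and loss of that binding is a known part of reprogramming.

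The 300 bases around the gene start (250 before to 50 after, RefSeq GRCm38.p6, gene strand, 5′ to 3′) are shown for 5 genes because their start peaks behaved differently. Fos and Jun had a peak over these bases in all 8 lists, Atf3 had the highest-ranked start peaks, Batf had a start peak in 2 lists only, and Jund had its peak beyond these bases. Capitals mark TGACG on either strand, TGACATCA and TTACCTCA (the jun1 and jun2 sites, known in the Jun promoter for binding JUN and ATF proteins), and TATAAA.
Fos, chr12:85473640-85473939, + strand: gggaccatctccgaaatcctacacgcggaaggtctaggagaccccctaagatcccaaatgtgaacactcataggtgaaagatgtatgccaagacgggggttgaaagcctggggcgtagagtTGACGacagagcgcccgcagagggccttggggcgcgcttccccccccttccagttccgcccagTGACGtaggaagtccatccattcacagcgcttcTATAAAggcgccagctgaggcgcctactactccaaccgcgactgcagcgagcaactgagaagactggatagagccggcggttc
Jun, chr4:95052173-95052472, − strand: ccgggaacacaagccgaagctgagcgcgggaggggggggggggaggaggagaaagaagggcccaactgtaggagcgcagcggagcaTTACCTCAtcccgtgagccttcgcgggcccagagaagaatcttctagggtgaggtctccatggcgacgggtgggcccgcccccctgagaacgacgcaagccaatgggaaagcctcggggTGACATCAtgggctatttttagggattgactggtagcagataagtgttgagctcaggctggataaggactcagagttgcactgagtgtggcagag
Atf3, chr1:191183284-191183583, − strand: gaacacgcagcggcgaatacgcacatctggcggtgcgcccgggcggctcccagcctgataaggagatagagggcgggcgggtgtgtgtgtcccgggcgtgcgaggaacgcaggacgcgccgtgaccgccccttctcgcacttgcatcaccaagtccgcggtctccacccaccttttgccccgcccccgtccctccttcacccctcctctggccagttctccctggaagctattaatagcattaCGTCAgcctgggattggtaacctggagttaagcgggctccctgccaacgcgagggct
Batf, chr12:85686470-85686769, + strand: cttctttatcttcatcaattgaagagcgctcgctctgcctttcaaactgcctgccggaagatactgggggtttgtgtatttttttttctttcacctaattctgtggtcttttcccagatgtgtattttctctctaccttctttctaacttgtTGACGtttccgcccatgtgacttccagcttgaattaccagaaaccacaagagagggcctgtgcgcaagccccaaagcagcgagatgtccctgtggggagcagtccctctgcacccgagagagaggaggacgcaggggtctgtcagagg
Jund, chr8:70697489-70697788, + strand: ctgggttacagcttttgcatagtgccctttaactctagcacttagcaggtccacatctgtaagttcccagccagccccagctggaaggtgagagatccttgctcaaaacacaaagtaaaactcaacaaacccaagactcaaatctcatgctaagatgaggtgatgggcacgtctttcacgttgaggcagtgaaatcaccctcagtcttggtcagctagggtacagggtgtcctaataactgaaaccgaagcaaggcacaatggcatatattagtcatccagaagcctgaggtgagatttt

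RefSeq promoter sequences matched 8 of the 9 genes by gene ID. The Fos promoter holds TGACG 129 and 66 bases before the start and TATAAA 33 bases before it, and the Jun promoter holds TTACCTCA 164 and TGACATCA 45 bases before its start. Searched on both strands in 17492 promoters of the same length, TGACG was found in 5 of the 8 (Fos, Fosb, Junb, Atf3 and Batf) and in 23.8% of all. It lies inside TGACGTCA, the full cyclic AMP response element, which was in 0 of the 8 and in 2.34% of all promoters. TGANTCA, which shares its first 3 letters with TGACG, was in 0 of the 8 and in 7.08% of all. Jun alone among the 8 held TGACATCA, found in 3.86% of all, and TTACCTCA, found in 0.697%. TATAAA was in Fos and Junb and in 13.3% of all, and the GC box GGGCGG in 6 of the 8 and in 46.3% of all. The CArG box, through which serum response factor acts, was in 0 of the 8 windows and in 1.54% of all. Sites more than 250 bases before the start were not searched, so these genes may hold one farther out. Jund stood lowest in CpG content, with an observed over expected CpG ratio of 0.18, followed by Batf with 0.49 and Jun with 0.59, and the other 5 had 0.67 to 1.03. Among all 17492 genes, the start was covered in all 8 lists at 62.3% of those with a CpG ratio of at least 0.6 and at 12.4% of those below, so promoter composition moves with start coverage genome-wide. Its part in the values of these 9 genes was not tested.

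The 8 lists differ in depth, which touches every comparison between stages. They hold 49683 (day 0), 83022, 41695, 57924, 40216, 43595, 31915 (day 12) and 49520 (iPSC) peaks. From each peak's deposited fold and p-value, its summit pileup (the number of fragments stacked at the highest point) was recovered, and the lowest local background of a list was taken as its depth. In the order of the stages this background pileup came to 1.96, 3.08, 1.23, 2.12, 0.682, 0.968, 0.248 and 1.90. Day 0, day 6 and iPSC are therefore close in depth, day 2 is the deepest, and day 12 is so shallow that a region had to reach 12.1 times the background to be listed, against 3.25 times at day 2. Fibroblast marker genes (8 listed) had an end covered at 7, 8, 7, 8, 6, 6, 2 and 8 genes from day 0 to iPSC, and pluripotency marker genes (8 listed) at 2, 2, 1, 3, 5, 5, 4 and 6. Endoderm markers were covered at 1, 2, 1, 1, 3, 4, 1 and 3 of 4 genes, epithelial markers at 1, 2, 0, 1, 4, 5, 3 and 5 of 6, and blood markers at 1 or 2 of 4 in every list. The ends of 4 of 4 spermatid genes were covered at day 0 and of 0 in every other list. The part of other cells in the values that follow was not tested, and with 1 list per stage a change in the share of cells with an open region cannot be told apart from a change in how open it is per cell.

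**Figure D1:**
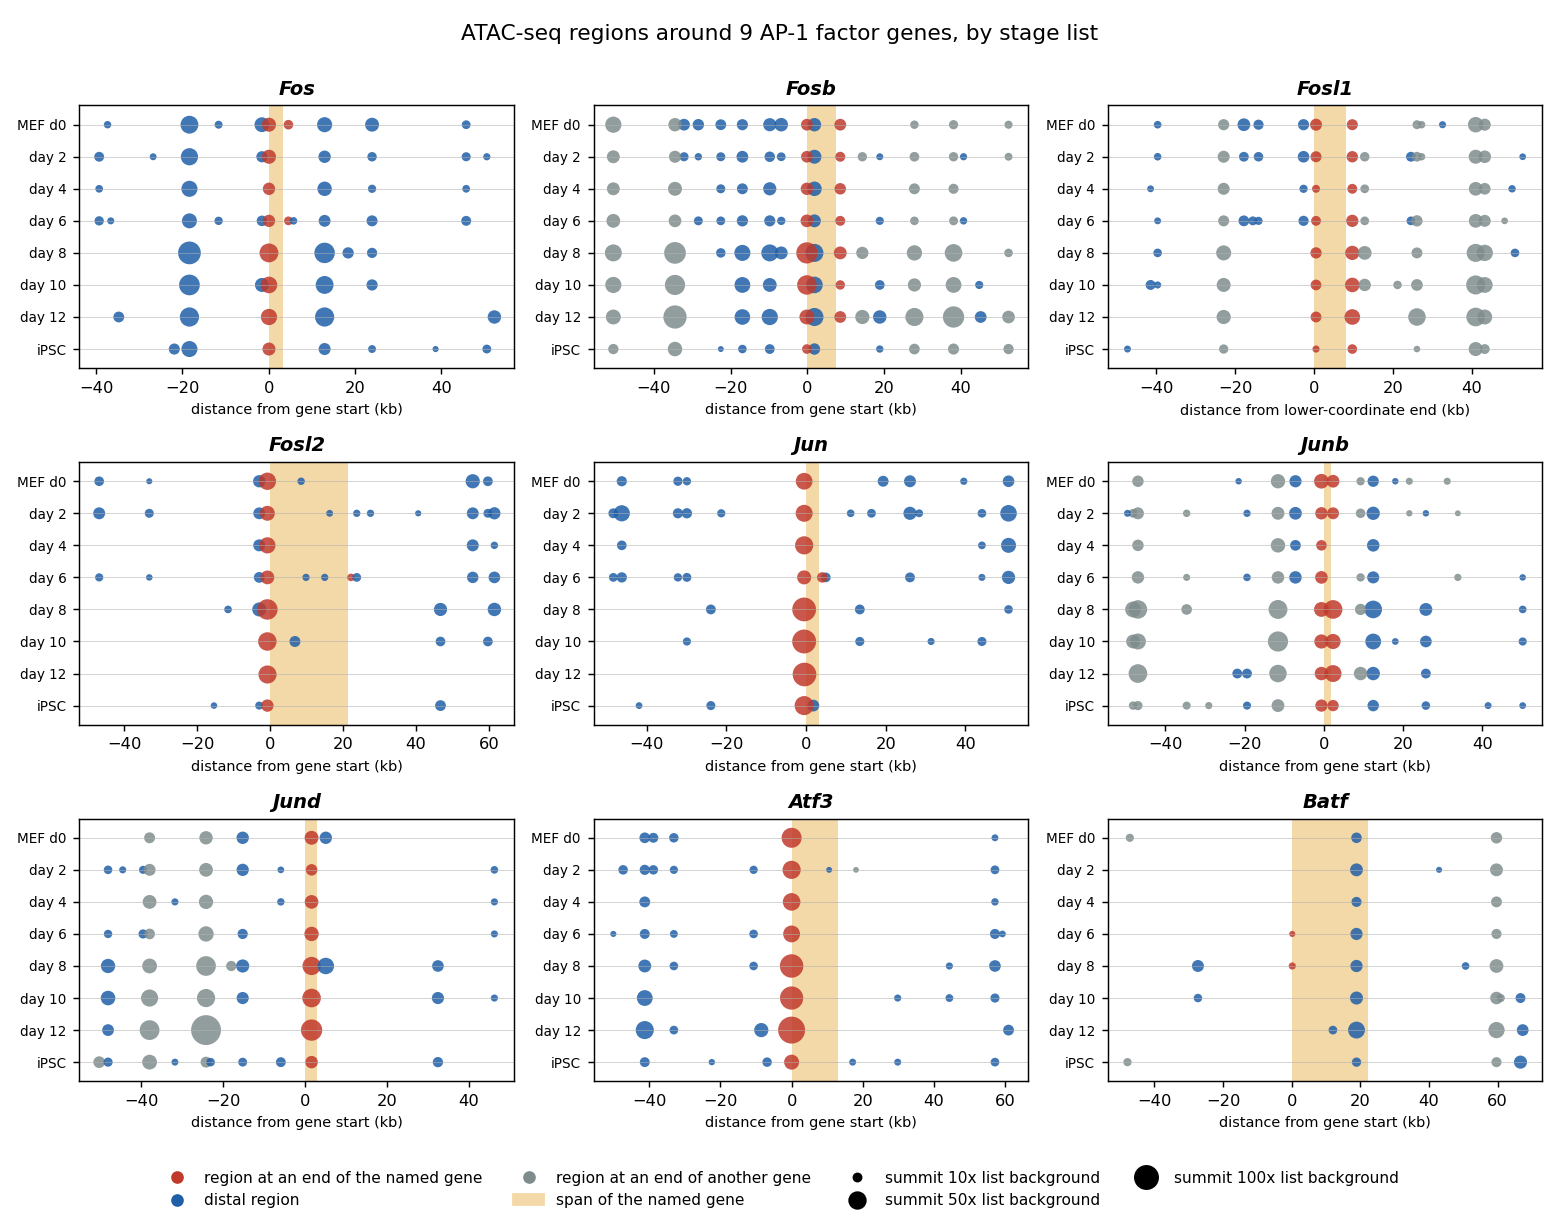
ATAC-seq regions in the 9 windows. In each panel the x axis is the distance of the region centre from the gene start in kb (from the lower-coordinate end for Fosl1), rows run from MEF at day 0 (top) to iPSC (bottom), red marks regions at ends of the named gene, blue distal regions and grey regions at ends of other genes, and point size is the summit pileup over the list's background pileup. The red points at the gene start form a column through nearly every list except for Batf, whereas blue points are scattered and, in the Fosl1 and Jun windows, sit mostly in the upper rows.

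Open ends were the rule at these genes. Counting a peak within 1 kb of either end, 8, 8, 7, 9, 9, 8, 7 and 8 of the 9 genes were covered from day 0 to iPSC, against 55.0%, 62.2%, 51.6%, 54.5%, 55.2%, 56.4%, 44.3% and 58.6% of all genes. The genes Fos, Fosb, Fosl1, Fosl2, Jun and Atf3, were covered in all 8 lists (6 of 9), as were 36.9% of all genes. Of the 8 genes whose start is known from the promoter table, 7, 7, 6, 8, 8, 7, 6 and 7 had a peak within 1 kb of the start from day 0 to iPSC, and the same held for 52.5%, 58.8%, 49.9%, 51.9%, 53.1%, 54.2%, 43.1% and 55.7% of all such genes. The start was covered in all 8 lists at 5 of the 8 genes (Fos, Fosb, Fosl2, Jun and Atf3) and at 36.5% of all genes. The counts of covered genes were the same after every deeper list was scaled down to the background of day 8, except that day 6 then had 8 of 9.

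Among the FOS family, Fos (chr12:85473890-85477274, + strand), the founding partner of JUN, had a start peak with summit pileups of 69, 110, 33, 56, 45, 49, 12 and 57 from day 0 to iPSC. Divided by each list's background these are 35.3, 35.7, 26.8, 26.5, 66.0, 50.6, 48.3 and 30.0. So no list lacked the peak. The values over background were highest at days 8, 10 and 12, the lists with the lowest background. Nearly all regions of these windows that were present in all 8 lists had their highest such value at day 8, 10 or 12. The exception was the one at the lower-coordinate end of Fosl1. The summit of the Fos peak lay 6 to 80 bases before the start, inside the promoter printed above. All 300 of those bases were under the peak in every list. Within its own list, ranked by −log10 q, the Fos peak stood at percentiles 64.6 to 90.1 (0 is the lowest and 100 the highest peak). The lowest rank was at day 12 and the highest at day 2. The far end of Fos was covered at day 0 only.

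Fosb (chr7:19302696-19310118, − strand), a FOS relative that is also an immediate early gene, had start pileups of 47, 72, 33, 60, 57, 68, 10 and 29. Its rank moved more than that of Fos, from percentile 46.8 at day 0 to 94.2 at day 8 and 94.0 at day 10, with 50.6 at day 12. Over the list background the day 8 and day 10 peaks reached 83.6 and 70.3 times, beside 15.3 times in iPSC and 24.0 times at day 0. The far end of Fosb was covered in 6 lists and not at day 10 or in iPSC.

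Fosl1 (chr19:5447698-5455938) encodes FRA1, a FOS relative without a strong activation domain. The peak at its lower-coordinate end had pileups of 49, 64, 12, 34, 15, 19, 5 and 14. Over the list background these were 25, 20.8, 9.76, 16.1, 22.0, 19.6, 20.1 and 7.37. By this measure iPSC stood lowest and day 0 highest. By the deposited fold over local background the order differed, with 4.61 at day 0 and 5.18 in iPSC. There the lowest value was 3.81 at day 4 and the highest 7.55 at day 10. A region beyond the other end, which also lies at an end of the neighbouring gene Ccdc85b, was present in all 8 lists with 41, 69, 20, 56, 25, 37, 11 and 29.

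Fosl2 (chr5:32136472-32157840, + strand) encodes FRA2. Its start peak was among the stronger ones, with pileups of 108, 124, 59, 72, 53, 61, 15 and 51 and percentiles of 70.1 to 95.6. The summit lay 609 to 731 bases before the RefSeq start in all 8 lists, so the 300-base promoter window had 0 to 184 bases under the peak. In iPSC the peak reached 26.9 times the list background, against 55.2 times at day 0. The deposited fold over local background went the other way, at 7.69 in iPSC, the highest of the 8 lists, and 5.32 at day 0.

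In the JUN family, Jun (chr4:95049036-95052222, − strand), the most studied JUN protein, had the widest start peak of the 9 genes in all 8 lists. Its pileups were 100, 163, 75, 75, 72, 104, 26 and 128, and it ranked at percentiles 84.7 to 96.7, with its highest rank in iPSC and its lowest at day 6. Over the background it stood at 67.4 times in iPSC and 51.1 times at day 0. The summit lay 118 to 293 bases before the start, on both sides of the TTACCTCA match, and the peak was 689 bases wide at day 12 and 2353 in iPSC.

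Junb (chr8:84976909-84978748, − strand), a weaker activator than JUN, had start pileups of 76 (day 0), 83 (day 2), 60 (day 6), 27 (day 8), 35 (day 10), 8 (day 12) and 50 (iPSC). At day 4 the nearest peak, with a pileup of 23, ended 1036 bases from the start, just outside the 1 kb limit. The summit lay 1046 to 1263 bases before the start at days 0, 2 and 6 and in iPSC, and within 85 bases of the start at days 8, 10 and 12. At day 6 a second peak, with a pileup of 51, overlapped the start itself. Its rank was lowest at day 12, with percentile 18.5, and highest at day 0, with 75.6. The far end was covered in 6 lists, all but days 4 and 6.

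Jund (chr8:70697739-70700616, + strand), which is known as the steadily expressed JUN gene, had pileups of 68, 71, 41, 79, 42 and 62 from day 0 to day 10 and 52 in iPSC. In each of these 7 lists the summit lay 816 to 1171 bases after the RefSeq start, and 0 of the 300 promoter bases printed above were under the peak. At day 12 the peak, with a pileup of 21, began 1011 bases from the start and so was not counted within 1 kb. Jund thus had an open region in all 8 lists inside the gene, away from the annotated start.

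Atf3 (chr1:191170296-191183333, − strand), a stress-induced repressor and partner of JUN, had the highest-ranked start peak of the 9 genes in 7 of the 8 lists. Its pileups were 145, 188, 70, 110, 70, 98, 34 and 77 and its percentiles 99.8, 99.0, 97.8, 99.4, 97.0, 99.1, 96.8 and 92.2, while the median start peak of all genes stood between percentiles 74.8 and 83.7. In iPSC the Jun peak ranked higher, at 96.7 against 92.2. Over the background Atf3 was at 40.6 times in iPSC and at 74.1 times at day 0. The highest value was 137 times at day 12, the list with the lowest background.

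Batf (chr12:85686720-85709087, + strand), known mainly from lymphocytes, was the exception. A start peak was listed only at day 6, with a pileup of 10, and at day 8, with a pileup of 5, at percentiles 1.8 and 0.7 of those lists. Both peaks were thus among the weakest of their lists, and scaled to the background of day 8 the day 6 peak was lost. In the other 6 lists the nearest peak lay 11947 bases (day 12) to 18661 bases (day 4) from the start. Being covered at the start on days 6 and 8 and in no other list was shared by 4 of the 17492 genes, Batf among them. That combination was taken from the Batf peaks themselves, so its rarity is a description only.

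**Figure D2:**
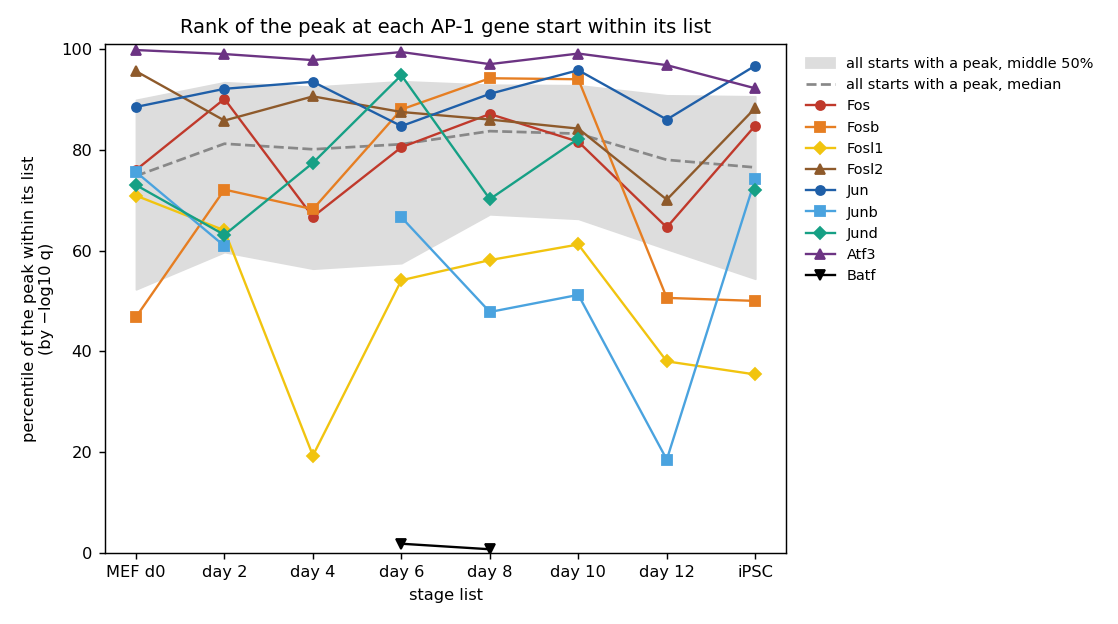
Rank of the start peak within its own list for each gene (y axis, percentile by −log10 q, 100 being the highest) against the 8 stage lists (x axis). The grey band holds the middle 50% of all gene starts with a peak and the dashed line their median. Atf3 stays above percentile 92, Jun stays between 84.7 and 96.7, Fosb is highest at days 8 and 10, and Batf appears at days 6 and 8 near 0.

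The windows held many distal regions. Jun had 19 (18.4 per 100 kb of window, percentile 99.8 of all protein-coding genes), Fos 17 (16.4, percentile 99.0), Fosl2 17 (14, percentile 96.5) and Atf3 16 (14.2, percentile 96.7). Fosl1 had 12 (11.1, percentile 87.4), Fosb 11 (10.2, percentile 82.9), Junb 10 (9.82, percentile 80.4), Jund 10 (9.72, percentile 79.7) and Batf 7 (5.72, percentile 44.6). The median was 11.1 per 100 kb over the 9 genes and 6.30 over all genes, whose middle 50% ran from 3.02 to 9.10. Of the 119, 82 lay between genes, 10 inside the named gene and 27 inside another protein-coding gene. In the outermost 5 kb inside the window rim there were 14 of them, and 7 more lay in the first 5 kb outside it.

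Distal coverage at the AP-1 genes was above the genome-wide share in each of the 8 lists. At day 0, peaks covered 43 of the 119 regions (36.1%, exact Clopper-Pearson 95% interval 27.5 to 45.4, against 25.1% of 147481 distal regions in the genome). Day 2 had 64 (53.8%, against 46.4%), day 4 had 26 (21.8%, against 20.1%) and day 6 had 54 (45.4%, against 29.7%). Later, day 8 had 33 (27.7%, against 18.5%), day 10 had 33 (27.7%, against 20.7%), day 12 had 21 (17.6%, against 15.0%) and iPSC had 37 (31.1%, against 24.7%). The intervals cover counting error only, and at days 2, 4, 10 and 12 and in iPSC they include the genome-wide share. With deeper lists scaled to the day 8 background the counts were 38, 47, 25, 40, 33, 32, 21 and 27, so day 2 stayed highest and day 12 lowest. The iPSC share was then 22.7%, against 31.9% at day 0, which were 31.1% and 36.1% as deposited. By family, FOS genes (57 regions) had 15 covered in iPSC and 25 at day 0 (10 and 22 at the day 8 background). JUN genes (39 regions) had 14 in iPSC and 13 at day 0, and the order turned at the day 8 background, to 10 in iPSC and 11 at day 0. Atf3 with Batf (23 regions) had 8 in iPSC and 5 at day 0 (7 and 5 at the day 8 background). No distal region of Fosl1, Fosl2 or Jun was covered at day 12, whereas Fos, Junb and Atf3 had 4 each there and Fosb had 5.

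**Figure D3:**
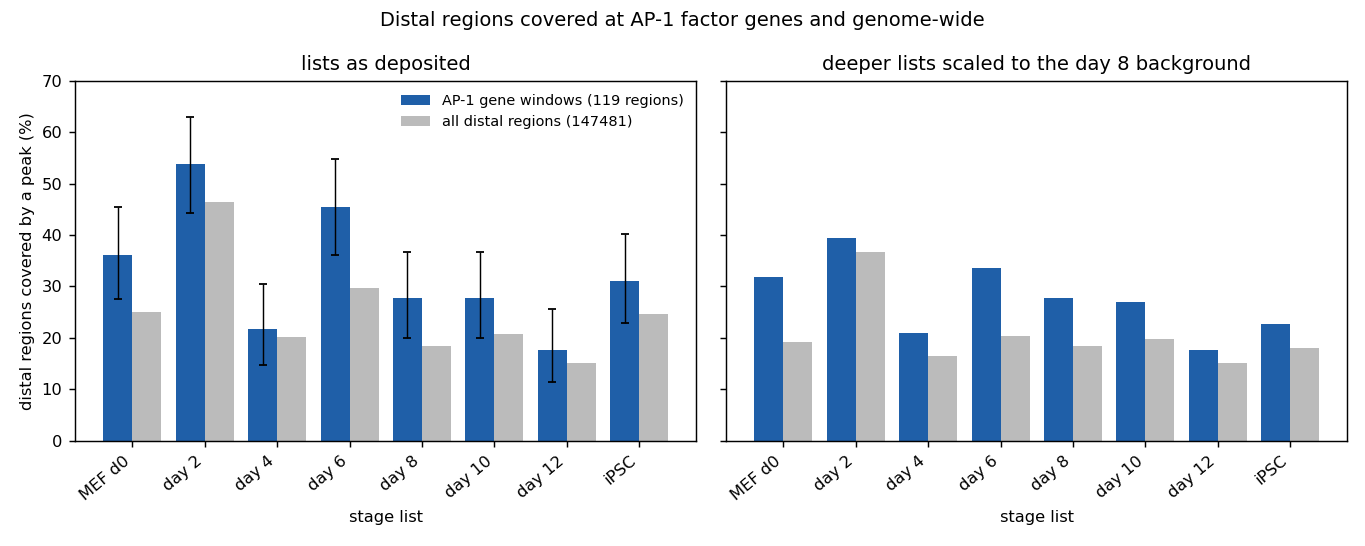
Share of distal regions covered by a peak in each stage list (y axis, percent), for the 119 regions in the AP-1 gene windows (blue) and for all 147481 distal regions (grey). Left, lists as deposited, with exact Clopper-Pearson 95% intervals for counting error; right, deeper lists scaled to the day 8 background. Blue is above grey in all 8 lists in both panels, by the widest margin at day 6.

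Sorting the regions by the end points, 24 of the 119 were in iPSC and not at day 0 (20.2%, 95% interval 13.4 to 28.5, against 19.9% of all distal regions), and 30 were at day 0 and not in iPSC (25.2%, interval 17.7 to 34.0, against 20.3%). A further 13 were in both (10.9%, interval 5.9 to 18, against 4.77%), and 52 were in days 2 to 12 alone (43.7%, against 55.0%). The interval of the share in both end points lies above the genome-wide value, and that of the share in days 2 to 12 alone (34.6 to 53.1) below it. These intervals treat regions as independent, although many share a window. Of the 13 in both end points, Fos had 3 and Fosb 4, and Fosl1 and Jun had 0. The genome-wide set holds distal regions at any distance from genes, so neither interval is a test of the 9 genes. The FOS genes had 7 iPSC-only and 17 MEF-only regions, the JUN genes 12 and 11, and Atf3 with Batf 5 and 2. At the day 8 background the counts were 4 and 16 for the FOS genes and 4 and 2 for Atf3 with Batf, while for the JUN genes the order turned, to 8 and 9. By gene, the iPSC-only and MEF-only counts were 3 and 7 for Jun (1 and 7 at the day 8 background), 1 and 5 for Fosl1 (1 and 4), and 2 and 5 for Fosl2 (1 and 4). Jund had 5 and 1 (4 and 1), Atf3 4 and 2 (3 and 2), and Junb 4 and 3 (3 and 1). At the day 12 background the counts were small, with at most 3 iPSC-only and 8 MEF-only regions in any family. The differences between these genes were not tested, since there is 1 list per stage.

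**Figure D4:**
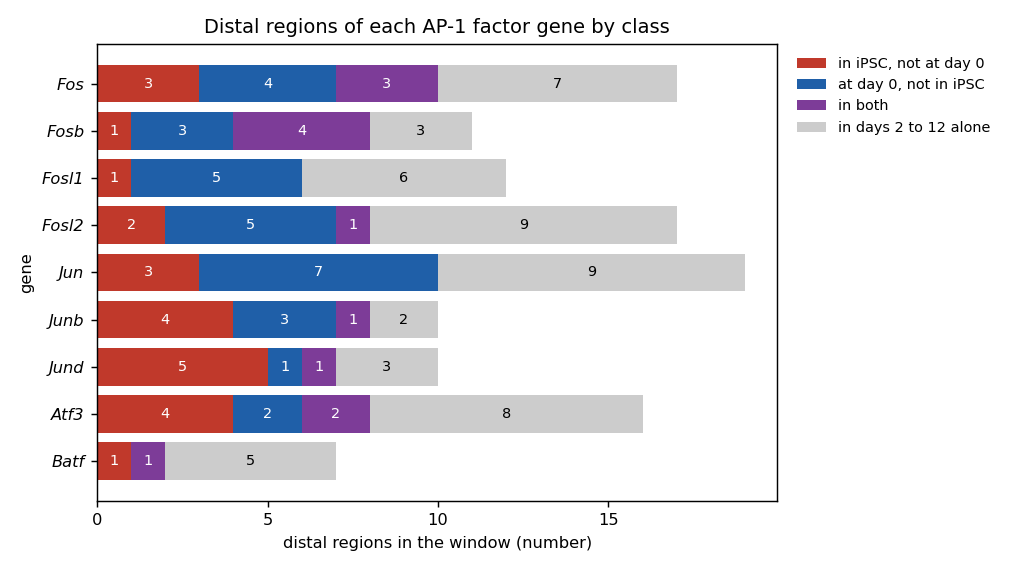
Number of distal regions (x axis) in the window of each AP-1 gene, split into those in iPSC and not at day 0 (red), at day 0 and not in iPSC (blue), in both (purple) and in days 2 to 12 alone (grey). Jun has the most regions, with 3 red and 7 blue, and Jund has the most red regions, with 5 red and 1 blue.

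Over all 8 lists, 8 of the 119 distal regions were present in every list (6.72%, interval 2.9 to 12.8, against 1.28% of all distal regions). Another 21 were early, in at least 2 of the lists of days 0 to 6 and in none from day 8 on (17.6%, against 21.8%), 8 were late, in at least 2 lists from day 8 to iPSC and in none before (6.72%, against 7.67%), and 55 were in 1 list alone (46.2%, against 55.8%). The early and late shares were close to or below the genome-wide ones. Scaled to the day 8 background, 8 of the 8 constant, 14 of the 21 early and 8 of the 8 late regions kept their pattern, and scaled to the day 12 background 7, 6 and 4 did. Of the 55 single-list regions, 6 (day 0), 14, 1, 8, 4, 3, 8 and 11 (iPSC) fell in the 8 lists in their order. Of the 82226 such distal regions in the genome, 10.7%, 23.7%, 4.28%, 5.75%, 7.13%, 9.51%, 14.1% and 24.8% did. The widest gap was at day 6, with 14.5% of the AP-1 regions and 5.75% of all, and it rests on 8 regions. Of these, only those at Fosl1 and Jun stayed listed at the day 8 background, and none at the day 12 background. The others stood at percentiles 2.0 to 11.3 of the day 6 list.

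Coverage of the 30 MEF-only regions fell at day 4, rose again at day 6 and was low from day 8 on. Besides day 0, 21, 6, 19, 5, 5 and 1 were covered on days 2 to 12. Over the 29981 MEF-only distal regions of the genome the shares on those days were 63.6%, 28.4%, 52.1%, 13.2%, 11.8% and 3.06%. The AP-1 share was below the genome-wide one at day 4 and above it on the other days, with 63.3% at day 6. At the background of day 8 the counts were 25 (day 0), 19, 6, 16, 5, 4 and 1, and there too day 8 had fewer than day 6, and day 4 fewer than days 2 and 6. At the background of day 12 they were 11, 13, 2, 7, 5, 3 and 1, which leaves little of the gap between day 6, with 7, and day 8, with 5. Of the 24 iPSC-only regions, 6, 2, 4, 6, 8 and 4 were covered at days 2, 4, 6, 8, 10 and 12, against 12.9%, 5.67%, 7.67%, 13.4%, 15.7% and 9.15% of 29341 in the genome. Of the 13 regions of both end points, 13, 12, 13, 13, 11 and 8 were covered on those days, against 89.3%, 64.8%, 79.9%, 66.8%, 68.4% and 37.0% of 7033.

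The regions present throughout belonged to Fos (2), Fosb (3), Junb (1), Atf3 (1) and Batf (1). The strongest of them, 18.4 kb upstream of Fos (chr12:85454950-85456083), had pileups of 115, 168, 58, 86, 66, 77, 17 and 89. It was above the Fos start peak in all 8 lists and ranked at percentiles 81.9 to 99.5. Over the background it stood at 46.9 times in iPSC and 58.8 times at day 0. A second, 13.0 kb downstream of the Fos start (chr12:85485714-85487993), had 81, 83, 46, 52, 53, 57, 17 and 48.

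At Fosb the constant regions lay 1.8 kb into the gene (chr7:19307521-19309047), with 63, 108, 47, 62, 41, 49, 15 and 43, and upstream at 9.8 kb and 16.9 kb. The region at 9.8 kb (chr7:19319573-19320282) had 60, 57, 38, 45, 36, 33, 12 and 30, and the one at 16.9 kb (chr7:19326497-19327630) had 42, 75, 25, 46, 32, 44, 11 and 22. In none of these 3 did the iPSC value over the list background exceed that of day 0. In the same order they stood at 22.7, 15.8 and 11.6 times in iPSC and at 32.2, 30.7 and 21.5 times at day 0. Their deposited fold over local background went the other way, at 5.64, 6.33 and 5.92 in iPSC and 3.64, 4.77 and 4.62 at day 0. At Junb a region 12.5 kb downstream (chr8:84965690-84966887), inside Rnaseh2a, had 43, 97, 34, 54, 39, 44, 8 and 43. Its pileup in iPSC and at day 0 was thus the same, at nearly the same list background. Its deposited fold over local background was 7.44 in iPSC and 5.16 at day 0.

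Batf, with an almost closed start, had a constant region 18.9 kb into the gene (chr12:85704853-85706392). Its pileups were 37, 90, 21, 55, 18, 29, 13 and 27, and its percentiles 68.9 to 94.7. The region 41.3 kb upstream of Atf3 (chr1:191223946-191225245) had 38, 54, 25, 35, 20, 44, 15 and 31. At the background of day 12, the region 16.9 kb upstream of Fosb was the only one of the 8 to drop out of a list.

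Of the 21 early regions, 14 were among the 57 distal regions of FOS windows and 6 among the 39 of JUN windows. The remaining 1, at Atf3, was among the 23 of Atf3 with Batf. Most distal regions lay in FOS and JUN windows, and 21.8% of all distal regions in the genome were early. The 3 strongest distal regions of Fosl1 were early and all lay beyond its lower-coordinate end. The one at 17.7 kb (chr19:5429664-5430239) had 56, 49 and 42 at days 0, 2 and 6, the one at 14 kb (chr19:5432988-5434332) had 34, 46 and 22, and the one at 2.6 kb (chr19:5444665-5445460) had 42, 72, 13 and 37 at days 0, 2, 4 and 6. At Fosl2 a region 55.5 kb downstream of the start (chr5:32191409-32192615) had 71, 76, 31 and 48 from day 0 to day 6. It held at least percentile 80.3 in each of those 4 lists and stayed in them at either depth scaling. It was absent from the 4 later lists, to which scaling, which only removes peaks, could not add it.

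The 3 strongest distal regions of Jun lay far out, and 2 of them were early. The region 46.3 kb upstream (chr4:95097769-95099185) had 34, 148, 19 and 38 from day 0 to day 6, and the one 26.1 kb downstream (chr4:95025641-95026630) had 49, 95 and 34 at days 0, 2 and 6. Another, 50.8 kb downstream (chr4:95000872-95001929), had 46, 155, 50 and 66 from day 0 to day 6 and, with 8 at day 8, was not an early one. All 3 were highest at day 2 over the list background too, at 48.0, 30.8 and 50.3 times, against 17.4, 25 and 23.5 times at day 0. By the deposited fold over local background, the one 50.8 kb downstream was highest at day 4, at 10.74 against 10.60 at day 2. The others were highest at day 2 by that fold as well. At Junb, an early region 7.2 kb upstream (chr8:84985289-84986510) had 51, 88, 24 and 58.

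Partly lasting regions were also among the 3 strongest of their genes. The one 1.6 kb upstream of Fos (chr12:85472069-85472571) had 78, 67, 40 and 34 at days 0, 2, 6 and 10. Near Fosl2, the region 3.0 kb upstream (chr5:32133031-32133990) had 52, 75, 31, 42 and 24 from day 0 to day 8 and 19 in iPSC, and the one 61.5 kb downstream (chr5:32197601-32198291) had 81, 10, 50 and 22 at days 2, 4, 6 and 8. The region 15.3 kb upstream of Jund (chr8:70682024-70682951) had 53, 82, 37, 21 and 25 at days 0, 2, 6, 8 and 10 and 24 in iPSC, and the one 57.1 kb downstream of Atf3 (chr1:191125667-191126728) was in all lists but day 12. A region 5.1 kb downstream of the Jund start (chr8:70702578-70703035) was listed only at day 0, with 53, and day 8, with 34.

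Late regions were fewer: 4 of the 23 at Atf3 and Batf, 3 of the 39 at JUN genes and 1 of the 57 at FOS genes, at Fosl2. The strongest in iPSC lay 66.7 kb downstream of the Batf start, inside Flvcr2 (chr12:85753111-85753707), with 58 in iPSC and 16 at day 10, at percentile 94.5 of the iPSC list. At Fosl2 a region 46.7 kb downstream had 21, 15 and 38 at days 8 and 10 and in iPSC. One 32.5 kb downstream of Jund had 16, 25 and 34 in the same lists. Both remained in all 3 lists at the background of day 12. A region 27.3 kb upstream of Batf (chr12:85659211-85659627) had 17 at day 8 and 11 at day 10 and was in neither end point.

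Other regions had most of their peaks in the later lists, or their only one. The region 25.7 kb downstream of Junb (chr8:84952730-84953276) had 17 at day 2, then 20, 23, 4 and 22 from day 8 to iPSC. The one 48.2 kb upstream of Jund (chr8:70648942-70650210) had 36 and 23 at days 2 and 6 and 25, 37, 6 and 26 from day 8 to iPSC. A region 8.5 kb upstream of Atf3 (chr1:191191726-191191985) was listed at day 12 alone, with 9 fragments, which is 36.2 times the background of that shallow list. Inside Jun, a region centred 1.8 kb past the start was listed in iPSC alone, with 46, and was lost when the list was scaled to the day 8 background.

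**Figure D5:**
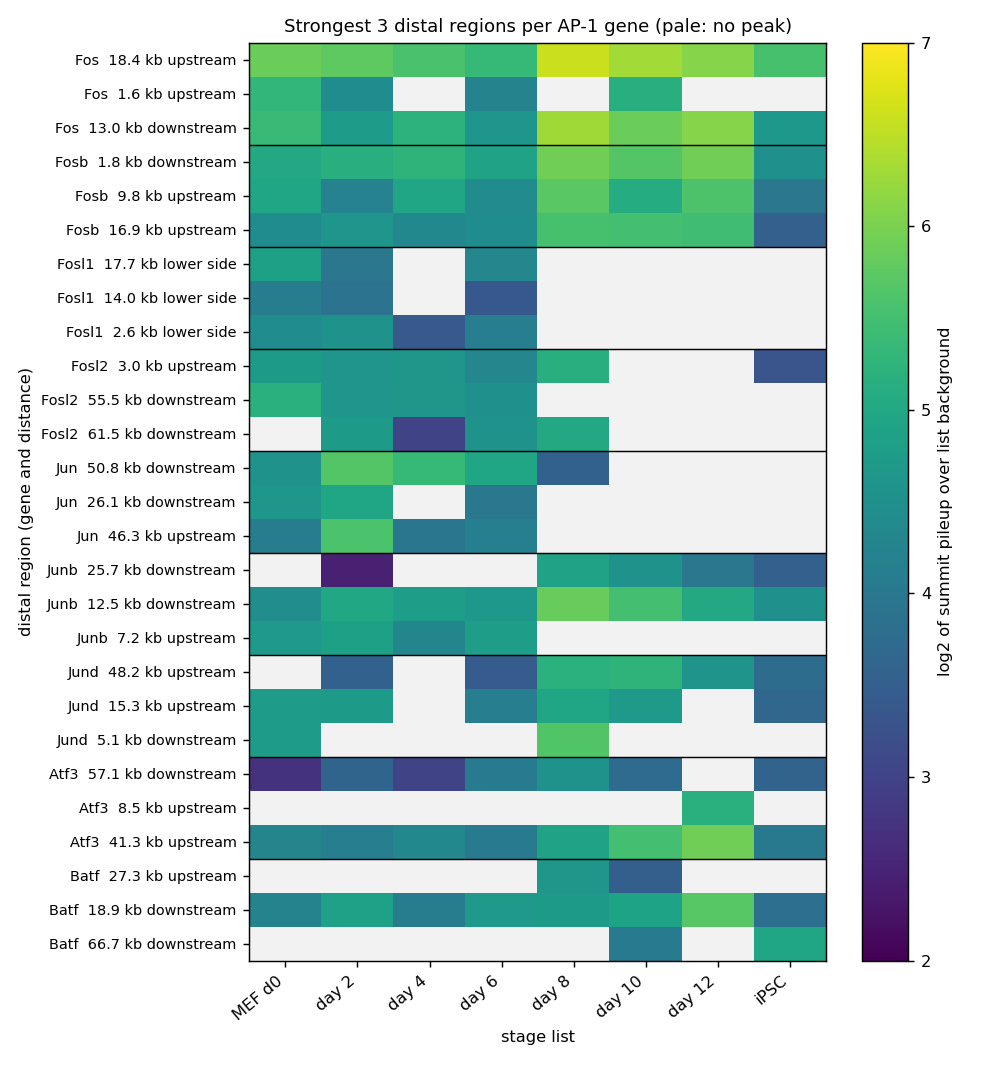
The 3 distal regions with the highest summit over background in any list, for each gene (rows), across the 8 stage lists (columns). Colour is the log2 of the summit pileup over the list's background pileup and pale cells mean no peak. Rows of Fos at 18.4 kb and 13.0 kb and all 3 rows of Fosb are filled throughout, whereas the 3 rows of Fosl1 are filled only up to day 6.

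The stage profile of the distal bases covered in each window, as a share of all bases in the list's peaks, was also compared with that of 17240 other genes over the 8 lists, as a description. Jun, with no distal bases at day 12 and its highest shares at days 0, 2 and 6, was most like Pakap (Pearson r = 0.991) and Cd300e (0.982). Fosl2, highest at day 6, was most like Tmem8b (0.985) and Fkbp5 (0.98). Fos, lowest at day 2 and highest at day 0, was most like Zfp985 (0.944) and Olfr433 (0.884). The points share the 8 lists and their depths.

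Genes of the wider pathway were counted in the same way. Of all protein-coding genes, 36.9% had an end covered in all 8 lists. Among 18 other basic leucine zipper genes, 12 had, and of their 217 distal regions 44 were iPSC-only and 54 MEF-only. Among 16 other immediate early genes the numbers were 10, and 31 and 50 of 189. Among 12 genes upstream of AP-1, which are 10 kinases and the ETS factors Elk1 and Elk4, they were 9, and 22 and 27 of 120. Among 16 genes known as AP-1 targets they were 5, and 29 and 42 of 163, with Plau, Plaur, Hmox1, Cd44 and Vim covered throughout. The MEF-only share was 25.2% at the AP-1 genes and 24.9%, 26.5%, 22.5% and 25.8% in these 4 lists, beside 20.3% of all distal regions. The iPSC-only share was 20.2% at the AP-1 genes and 20.3%, 16.4%, 18.3% and 17.8% in these lists, beside 19.9% of all. Regions in both end points numbered 16 of 217, 29 of 189, 7 of 120 and 10 of 163 in these 4 lists. At the AP-1 genes they were 13 of 119, beside 4.77% of all distal regions, so a share above that value was not particular to the AP-1 genes. Jdp2, which encodes an AP-1 repressor and has an end inside the Batf window, had an end covered at days 0, 2, 8 and 10 and in iPSC.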

How the data were processed

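ATAC-seq was measured in 16 samples, 2 per stage, and the authors deposited 1 peak list per stage. The sources used here do not say how the samples were combined, so there is no replicate spread and no test between stages, and no p-value was computed. The submitters' processing notes name deepTools 3.4.3, MACS2 2.1.2, SAMtools, Bowtie2 2.2.5 and fastp 0.20.1 and the build mm10, with no order, role or setting. A shift of reads for the Tn5 offset is not mentioned in the sources used here.

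Per peak, the deposited lists hold a score, a fold over local background at the summit (a ratio), a −log10 p-value and a −log10 q-value, which are the authors' own values. The highest q-value in a list was 0.0487 to 0.0500. From the deposited fold and −log10 p-value, summit pileup and local background were recovered as the pair that gives both under a Poisson model with 1 added to each, and recomputed values came within 0.001 in each list for 99.998% of peaks or more. The lowest local background of a list is its background pileup. The recovery and the merging were tested on simulated data with known answers.

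Peaks on the numbered chromosomes, X and Y were merged across lists where they overlapped by 1 bp or more, which left out 36 to 57 peaks per list on other sequences. Gene spans come from RefSeq GRCm38.p6, and gene starts for 17492 of 21887 protein-coding genes from the strands of the promoter table. Depth scaling multiplied each summit pileup and background by the ratio of background pileups, and a peak was kept if it still passed the lowest −log10 p of its own list. Intervals are exact Clopper-Pearson 95% intervals, treat regions as independent and cover counting error only. Alternatives were a q-value of at most 0.001, lists of equal length (31915 peaks), both depth scalings, other overlaps, a 2.5 kb end window, a 20 kb flank and leaving out day 2.

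The text names the 9 genes, their end regions, the 3 distal regions per gene with the highest summit over background in any list, and the 2 genes most alike in stage profile to the 3 members with the most distal regions. The regions 46.7 kb downstream of Fosl2, 32.5 kb downstream of Jund and 1.8 kb into Jun, and the pathway genes singled out by name, were named after their values were seen. The members and the gene lists were chosen with earlier results of these data known. Python 3.11.15, numpy 2.4.6, scipy 1.17.1 and pandas 2.3.3 were used.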

Additional observations from a re-analysis of the deposited data

How the results depend on the processing

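No paired analysis was possible because each stage has 1 list and no test was run. The planned overlap of 50% changes nothing by construction, since every peak lies inside its merged region. Asking instead that a peak cover 50% of the region was added after seeing the data. It gave 4, 5 and 2 genes with a covered end at days 4, 10 and 12, distal counts of 13, 19, 19 and 10 at days 4, 8, 10 and 12, and 6 regions in both end points. With lists of equal length, distal counts were 27 (day 2), 34 (day 6) and 21 (iPSC), with 11 iPSC-only and 26 of days 2 to 12 alone. A 20 kb flank, which holds fewer regions, left 20, 27, 11, 26, 15, 14, 11 and 17 from day 0 to iPSC, with 8 iPSC-only, 11 MEF-only and 20 of days 2 to 12 alone. At the background of day 12, counts were 20, 33, 12 and 21 from day 0 to day 6 and 14 for iPSC, and there were 7 iPSC-only, 13 MEF-only and 7 in both. All other counts of covered ends, of covered distal regions by stage and of the 4 classes stayed within 1.5 times of those reported under the alternatives run, including all of them at a q-value of at most 0.001, with the 2.5 kb end window and at the background of day 8. Patterns and counts per gene or family moved more: at the background of day 12 there were 6 early regions, against 21 as deposited, and 33 in 1 list alone, against 55. At that of day 8 the FOS genes had 4 iPSC-only regions, against 7. The depth scalings match the lowest background of the lists and not their length, and day 12 remains below the day 8 background. At day 12 a region under 12.1 times the background was not detectable.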
